A study of Mus musculus with 8 samples.

Results

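The TGF-beta ligands, the latent TGF-beta binding proteins and other secreted proteins were examined in mouse intestinal organoids as a set of 10 genes. They are the 3 ligand genes Tgfb1, Tgfb2 and Tgfb3, the 4 latent TGF-beta binding protein genes Ltbp1 to Ltbp4, and Fstl3, Tgfbi and Thbs1. These genes were chosen by name, with earlier results of these data known, and every probe that the platform annotation gives to them was kept. This gave 22 probes of the 45281 on the array, and 10 of the 19057 genes with a named probe. Each sample was hybridised to 1 Illumina bead array, with 4 samples left untreated and 4 given TGF-beta at 3 ng/ml for 18 h. All 8 samples, the untreated ones included, came from C57Bl mice aged 3-4 months, were Apc-mutated (Apc-deleted in the design text) and had received tamoxifen, after which they were kept without growth factors. No source used here names the Cre driver behind the tamoxifen step. Nor do the labels state if samples of a group came from different animals or cultures, so each p-value reflects sample-to-sample spread that could be technical.

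TGF-beta is secreted as a latent complex. Each ligand stays bound to the propeptide cut from its own precursor by furin-type proteases, and this small complex is tied by disulphide bonds to a latent TGF-beta binding protein, which anchors it to fibrillin and fibronectin in the matrix. Integrins that bind the propeptide, thrombospondin-1 and several proteases can free the ligand, which then acts through serine/threonine kinase receptors and Smad proteins. The array measured transcripts, so the TGF-beta protein added to the medium was not itself part of the signal.

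Between 14554 and 16626 probes were detected per array, a probe being called detected when its detection p was under 0.05. The label of the tissue was checked with 10 epithelial marker genes, of which 9 were detected on all 8 arrays. The exception was Epcam, whose single probe was detected on 0 untreated and 4 TGF-beta arrays. These markers moved with the treatment: 7 of the 10 rose, among them Krt20 (14.7-fold), and Lgr5 (2.76-fold) and Cdx2 (2.05-fold) fell. The shares over all genes tested were 9.57% higher and 9.88% lower. Of the 7, Epcam entered the test through its TGF-beta arrays alone. The summed signal of the 10 markers on the linear scale was 23403 to 25766 in untreated and 49994 to 57526 in TGF-beta samples. What part this had in the rises described here was not tested. Markers of other cells were mostly dim. Of 12 mesenchymal markers, 8 were detected on no array, among them Col1a1, Col1a2, Col3a1, Pdgfra and Pdgfrb, while Vim was detected on all 8 arrays. None of 7 endothelial markers and none of 4 platelet markers passed the detection filter. Of 8 immune markers named on the array, Cd14 and Cd3e were detected on all 8 arrays and Itgam and Tyrobp on 0. Replicates 1 and 4 of both groups differed from replicates 2 and 3, with Xist high in the latter (means of 9.66 against 4.58 on the log2 scale for probe ILMN_2475156) and Eif2s3y in the former (8.35 against 4.58). Each set held 2 samples of each group, and results are given within the sets below.

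Most of the member probes were too dim to test. A probe was tested when it was detected on at least 4 of the 8 arrays, and 8 of the 22 probes passed, covering Tgfb1, Ltbp1, Ltbp3, Ltbp4, Tgfbi and Thbs1. Of the 14 probes left out, 8 were detected on no array and 6 on 1 to 3 arrays. Tgfb2, Tgfb3, Ltbp2 and Fstl3 had no tested probe. Among the 8 tested probes, 4 rose with TGF-beta and 0 fell at an adjusted p under 0.05 (limma, Benjamini-Hochberg over all 15573 tested probes), and 1 further probe, of Tgfbi, was lower at an unadjusted p under 0.05. Over all tested probes 17.7% passed, 8.8% higher and 8.86% lower. The risen probes belonged to Tgfb1, Thbs1 and Ltbp4. For Tgfb1, Thbs1 and the second Ltbp4 probe the filter was passed mainly through the TGF-beta arrays, so their count says little about the members as a whole. Whether there were fewer cells of a kind or less RNA per cell cannot be told apart in such bulk samples.

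**Figure D1:**
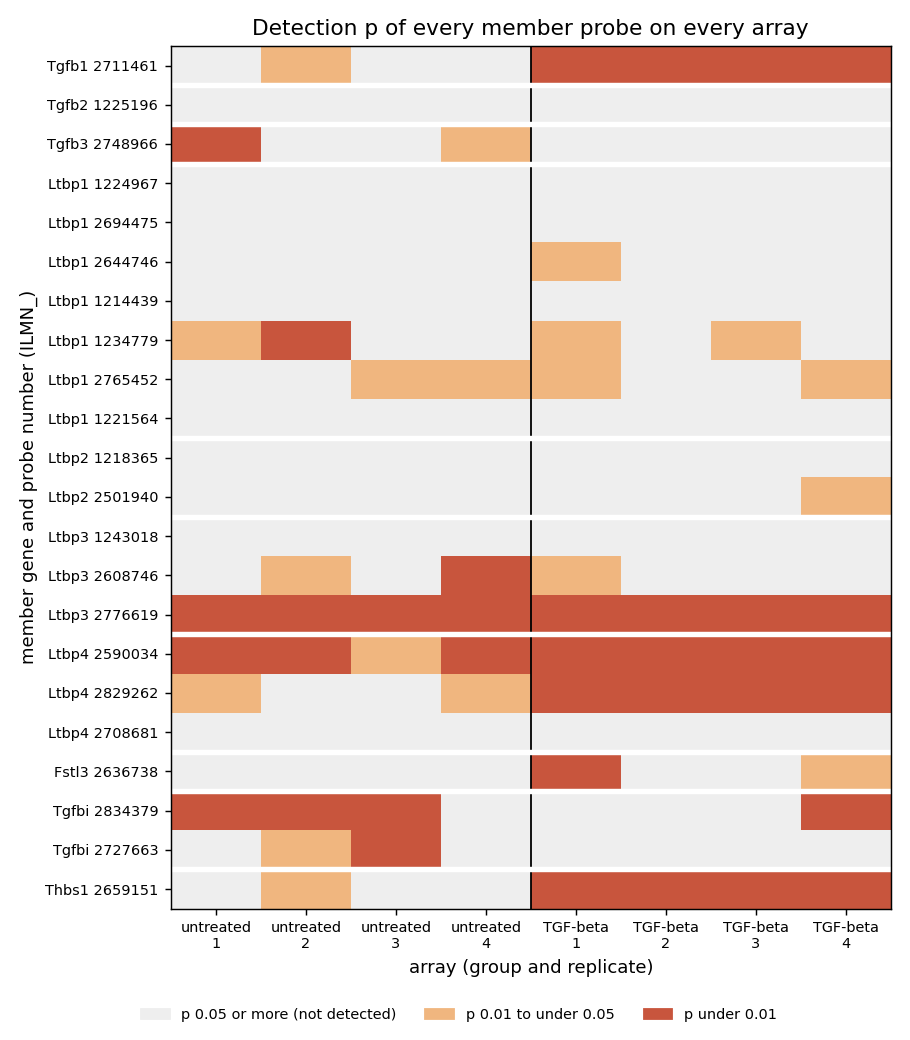
Detection p of all 22 member probes (rows, grouped by gene) on the 8 arrays (columns, untreated left of the line and TGF-beta right of it), in 3 classes. Tgfb1 and Thbs1 were detected on 1 untreated and all 4 TGF-beta arrays, and 8 probes were detected on none.

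Of the ligands, Tgfb1 rose and the other 2 stayed near background. Tgfb1, on chromosome 7, encodes the ligand that is the most widely expressed of the 3 in adult tissues. Its probe (ILMN_2711461) gave normalized log2 signals of 4.67, 5.13, 4.70 and 4.70 in untreated replicates 1 to 4. With TGF-beta it gave 7.21, 7.27, 6.73 and 7.12. Every TGF-beta sample lay above every untreated sample, and only untreated replicate 2 was called detected among the untreated. The non-normalized intensities behind these values were 131, 155, 137 and 134 in untreated and 252, 221, 234 and 255 in TGF-beta samples. The difference was +2.28 (SE 0.170, 95% interval 1.90 to 2.65, adjusted p = 2.3e-05), a 4.85-fold rise from 4.80 ± 0.22 to 7.08 ± 0.24 (SD, n = 4). The untreated mean lay below the lowest signals called detected on the arrays, 5.04 to 5.23, so the size of the fold is uncertain. With each array's values set no lower than its lowest detected signal, an alternative chosen after seeing the data, the difference was +1.97 (3.92-fold). Without background correction it was +0.87 (adjusted p = 0.00018).

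Tgfb2, whose product acts in heart and eye development, was detected on 0 of 8 arrays, with signals between 4.46 and 4.99. Tgfb3, known for its part in palate closure, was detected in untreated replicates 1 (5.45) and 4 (5.17) and on 0 TGF-beta arrays. Its other 6 values lay between 4.35 and 4.93, and the groups overlapped. In numbered pairs Tgfb3 was lower with TGF-beta in 4 of 4 and Tgfb2 in 2 of 4. Neither gene was tested, and signals this close to background cannot settle if their transcripts differed.

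**Figure D2:**
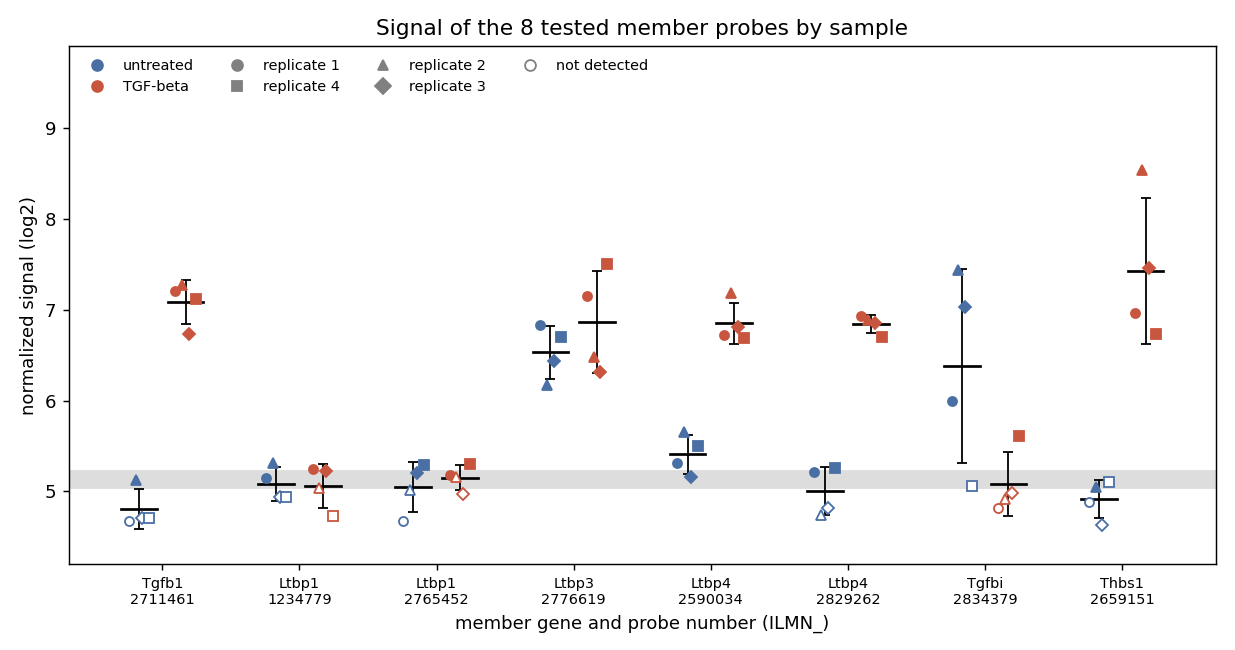
Normalized log2 signal of the 8 tested member probes in each sample (points by replicate, open where not detected), with the group mean (bar) and SD (whisker, n = 4); the grey band spans the lowest detected signals of the arrays, 5.04 to 5.23. The TGF-beta samples of Tgfb1, both Ltbp4 probes and Thbs1 all lie above the untreated ones, while the groups of Ltbp1, Ltbp3 and Tgfbi overlap.

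Among the latent TGF-beta binding proteins, Ltbp4 rose, and Ltbp1 and Ltbp3 did not pass the test. Ltbp4, on chromosome 7 like Tgfb1, encodes a matrix protein needed for elastic fibre assembly that binds the latent form of the Tgfb1 product less efficiently than its relatives do. Probe ILMN_2590034 was detected on all 8 arrays, with 5.32, 5.66, 5.16 and 5.50 in untreated replicates 1 to 4 and 6.72, 7.18, 6.80 and 6.69 in TGF-beta replicates. This is a rise of 1.44 (SE 0.166, 2.71-fold, adjusted p = 0.00034) with no overlap of the groups. Probe ILMN_2829262 gave 5.21, 4.74, 4.82 and 5.26 in untreated samples, detected in replicates 1 and 4. In TGF-beta samples it gave 6.93, 6.88, 6.86 and 6.70. It rose by 1.84 (SE 0.158, 3.57-fold, adjusted p = 5.4e-05), or by 1.69 with values set no lower than the lowest detected signals. Both probes thus rose in 4 of 4 numbered pairs. Over all tested probes 22.9% had groups that did not overlap. The third Ltbp4 probe (ILMN_2708681) was detected on 0 arrays and stayed between 4.41 and 4.83. No source used here places the probes within the transcript.

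Ltbp3, which binds all 3 latent ligands and is known for its role in bone and tooth, was the binding protein gene with a probe far above background in untreated samples. Probe ILMN_2776619 gave 6.83, 6.17, 6.43 and 6.70 in untreated replicates 1 to 4 and 7.15, 6.48, 6.32 and 7.50 in TGF-beta replicates. The groups overlapped, and replicates 1 and 4 were higher than replicates 2 and 3 in both. The difference of +0.33 did not pass (95% interval -0.26 to 0.92, adjusted p = 0.447). The other 2 Ltbp3 probes were detected on 3 arrays and on 0.

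Ltbp1, the family member most studied as a store of latent TGF-beta in the matrix, had 7 probes, 2 of them tested. Probe ILMN_1234779 averaged 5.08 ± 0.18 in untreated and 5.06 ± 0.24 in TGF-beta samples, and probe ILMN_2765452 averaged 5.05 ± 0.27 and 5.15 ± 0.14 (SD, n = 4). Each was detected on 2 untreated and 2 TGF-beta arrays, at the lowest level that could be called. Their differences were -0.03 (95% interval -0.39 to 0.34) and +0.10 (-0.26 to 0.47), with adjusted p of 0.936 and 0.723. Close to background these intervals bound the difference in signal, and not necessarily that in transcript. Of the other 5 probes, 1 was detected, on a single array. Ltbp2, which unlike its relatives does not bind latent TGF-beta, had 2 probes, one detected on no array and the other only in TGF-beta replicate 4 (5.17).

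Thbs1 had the largest difference of the 8 probes over all samples, but not within replicates 1 and 4 or without TGF-beta replicate 2, where that of Tgfb1 was larger (2.47 and 2.22). Thbs1 encodes thrombospondin-1, a matrix glycoprotein that can bind the propeptide of latent TGF-beta and free the ligand. The probe ILMN_2659151 gave 4.88, 5.05, 4.63 and 5.10 in untreated replicates 1 to 4, with replicate 2 alone detected. With TGF-beta it gave 6.96, 8.54, 7.46 and 6.73. No TGF-beta value overlapped an untreated one, and the TGF-beta samples spread more widely than for Tgfb1, with the highest value in replicate 2, the array with the fewest detected probes. The rise was 2.51 (SE 0.336, 95% interval 1.76 to 3.25, 5.68-fold, adjusted p = 0.00086). Without TGF-beta replicate 2 it was 2.14 (adjusted p = 0.00025), and with values set no lower than the lowest detected signals it was 2.33. Platelets are a rich source of thrombospondin-1. Of their 4 markers on the array, Pf4 and Ppbp were detected on 0 arrays, and Itga2b and Gp9 on 1 array each. Their summed signal on the linear scale was 102 to 114 in untreated and 103 to 115 in TGF-beta samples, below the 131 to 150.1 that 4 probes at the lowest detected signals would give. What part platelets had in the Thbs1 signal was not tested.

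Tgfbi encodes a secreted matrix adhesion protein named for its induction by TGF-beta in a lung cancer cell line. Here its signal was lower with TGF-beta in 3 of 4 numbered pairs. Probe ILMN_2834379 gave 6.0, 7.43, 7.03 and 5.06 in untreated replicates 1 to 4, and 4.82, 4.92, 4.98 and 5.61 in TGF-beta replicates. The untreated samples thus ranged from background to clearly detected, and the groups overlapped because TGF-beta replicate 4 was above untreated replicate 4. The difference of -1.30 (SE 0.444, 95% interval -2.28 to -0.31) did not pass (adjusted p = 0.071). With the replicate number as a block the adjusted p was 0.039, where 29.2% of all probes were called, 15.7% lower. It was 0.0082 without untreated replicate 4, where the difference was -1.74. Without untreated replicate 2 the difference was -0.95 (adjusted p = 0.162). The second Tgfbi probe (ILMN_2727663) was detected in untreated replicates 2 (5.07) and 3 (5.66) and on 0 TGF-beta arrays, and was not tested.

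The mesenchymal marker Vim, an intermediate filament gene, was also lower with TGF-beta. It gave 9.0, 10.54, 10.26 and 8.93 in untreated replicates 1 to 4 and 8.36, 8.47, 7.82 and 8.40 with TGF-beta, a difference of -1.42 (SE 0.357, adjusted p = 0.021). As with Tgfbi, untreated replicates 2 and 3 were the highest of the 8 samples, but in the pair of replicate 4 Vim was lower with TGF-beta and Tgfbi higher. The summed signal of the 12 mesenchymal markers was 795 to 1794 in untreated and 533 to 716 in TGF-beta samples on the linear scale. Vim made up most of the untreated sums: the other 11 markers together gave 286 to 306 in untreated and 307 to 363 in TGF-beta samples, where 11 probes at the lowest detected signals would give 361 to 413. Acta2, the only other mesenchymal marker tested, gave 5.22 ± 0.21 and 5.92 ± 0.77 (SD, n = 4; +0.70, adjusted p = 0.175). What part such cells had in the Tgfbi result was not tested.

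Fstl3, a secreted protein that binds and blocks activins, was detected in TGF-beta replicates 1 (5.55) and 4 (5.20). Its other values ran from 4.54 to 5.04, with 0 of 4 untreated samples detected. Fstl3 was higher with TGF-beta in 4 of 4 numbered pairs, but the groups overlapped and the gene was not tested.

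Across the 2 sets of replicates the risen probes behaved alike in direction. The rise of Tgfb1 was 2.47 within replicates 1 and 4, against 2.08 within the other set. For Thbs1 the rises were 1.86 and 3.16. The first Ltbp4 probe gave 1.30 and 1.58, and the second 1.58 and 2.09. All 4 passed in both sets (limma), with adjusted p up to 0.0027, where 8.69% and 10.2% of all probes were called higher. Both sets were contrasts of 1 fit whose variance was shared over all 8 samples, so these p-values are not independent. The 4 probes were also picked by their rise over the same 8 samples, so passing in both sets is no separate support. Tgfbi differed most, with -0.31 in replicates 1 and 4 (adjusted p = 0.571) and -2.28 in replicates 2 and 3 (adjusted p = 0.00078). The test of that difference itself gave -1.97 (SE 0.459) with an adjusted p of 0.225. None of the 8 probes passed this test (limma, 0 past the adjusted threshold), 2 had an unadjusted p under 0.05, those of Tgfbi and Thbs1, and 0.0128% of all probes passed. With median scaling of the arrays in place of quantile normalization, Tgfbi alone of the members passed it (-2.05, adjusted p = 0.0040).

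**Figure D3:**
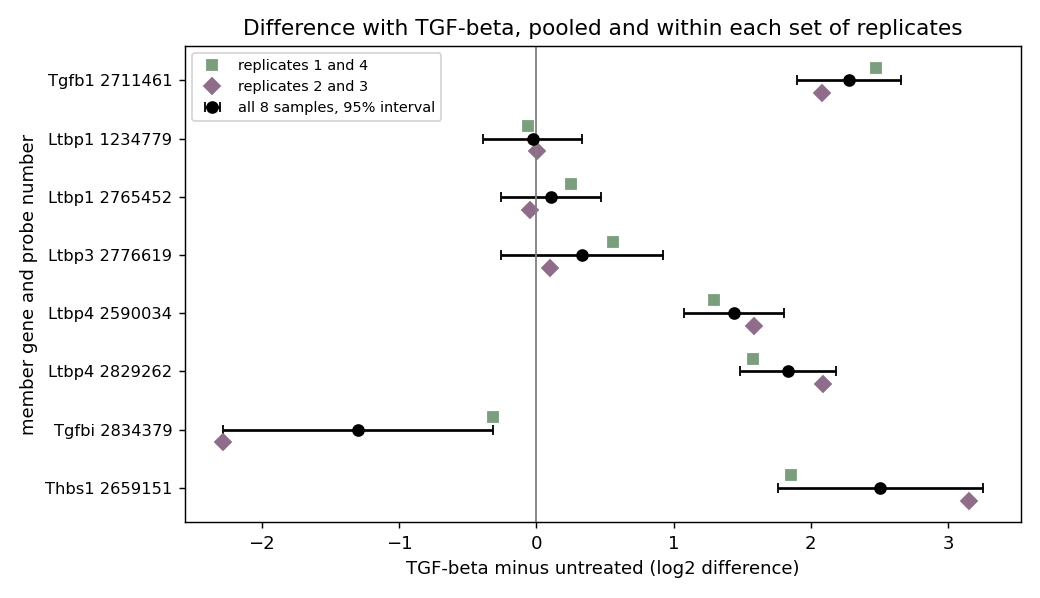
TGF-beta minus untreated (log2) for the 8 tested member probes over all 8 samples (circles, with the 95% interval), within replicates 1 and 4 (squares) and within replicates 2 and 3 (diamonds). Tgfb1, both Ltbp4 probes and Thbs1 lie between 1.30 and 3.16 in every estimate, and the estimates of Tgfbi run from -2.28 to -0.31.

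The promoters of the genes that rose together, and of Tgfbi for contrast, are printed here as RefSeq gives them. Each window runs from 250 bases before to 50 after an annotated start on GRCm38.p6. Capitals mark CAGAC, the box bound by Smad3 and Smad4, GGCGC and GGCCG, GC-rich forms bound by the same proteins, and TGANTCA, the AP-1 site, each searched on both strands with overlaps counted. Windows were found for 8 of the 10 genes, 11 in all, and the table held none for Tgfb3 and Thbs1. Of the 3 Ltbp4 windows, 2 overlap, and the third lies at another start further upstream. The Tgfb1 window is chr7:25686752-25687051 on the plus strand. The Ltbp4 windows shown, on the minus strand, are chr7:27337563-27337862 (upstream start) and chr7:27333614-27333913 (downstream start). That of Tgfbi is chr13:56609336-56609635 on the plus strand.
Tgfb1: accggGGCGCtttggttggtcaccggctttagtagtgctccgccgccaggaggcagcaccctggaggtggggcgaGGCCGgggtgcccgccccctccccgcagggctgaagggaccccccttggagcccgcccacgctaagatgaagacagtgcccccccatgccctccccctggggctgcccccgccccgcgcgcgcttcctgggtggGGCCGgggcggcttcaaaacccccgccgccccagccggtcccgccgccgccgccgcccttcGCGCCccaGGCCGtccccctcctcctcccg
Ltbp4 upstream start: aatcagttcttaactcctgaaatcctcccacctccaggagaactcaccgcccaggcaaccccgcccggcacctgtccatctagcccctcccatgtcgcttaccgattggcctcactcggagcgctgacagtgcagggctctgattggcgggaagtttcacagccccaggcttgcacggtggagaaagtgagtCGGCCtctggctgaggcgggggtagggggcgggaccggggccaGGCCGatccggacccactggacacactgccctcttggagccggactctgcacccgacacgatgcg
Ltbp4 downstream start: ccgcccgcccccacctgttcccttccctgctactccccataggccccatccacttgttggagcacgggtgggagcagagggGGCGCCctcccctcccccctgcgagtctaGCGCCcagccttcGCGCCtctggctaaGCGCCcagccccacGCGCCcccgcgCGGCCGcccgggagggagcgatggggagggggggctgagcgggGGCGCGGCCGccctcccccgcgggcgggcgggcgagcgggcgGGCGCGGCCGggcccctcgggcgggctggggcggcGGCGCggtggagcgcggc
Tgfbi: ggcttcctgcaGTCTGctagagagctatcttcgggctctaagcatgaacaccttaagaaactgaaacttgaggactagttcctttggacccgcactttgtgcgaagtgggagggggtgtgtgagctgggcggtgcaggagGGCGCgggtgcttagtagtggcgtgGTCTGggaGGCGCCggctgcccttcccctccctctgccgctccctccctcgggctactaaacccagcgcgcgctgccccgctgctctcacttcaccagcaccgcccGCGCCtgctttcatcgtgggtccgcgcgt
The Tgfb1 window held 0 CAGAC boxes, 2 GGCGC and 3 GGCCG. The upstream Ltbp4 window held 2 GGCCG and 0 of the other motifs, and the downstream window held 9 GGCGC and 6 GGCCG in a sequence with 81.3% G and C. The Tgfbi window held 2 CAGAC and 4 GGCGC. Over all 32851 windows of the same length, 49.6% held CAGAC, 36.9% GGCGC, 35.2% GGCCG and 7.81% TGANTCA. Among the members TGANTCA was found in the Ltbp3 window alone, on chromosome 19, where it overlaps a CAGAC. These matches describe the letters in these windows.

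Genes that process, anchor or free latent TGF-beta were described as a list of 24 genes, where a gene stood for its tested probe with the highest mean. This list and those below were chosen with earlier results of these data known, so their counts are descriptions and not tests of a pathway. Of 13 tested, 12 rose and 0 fell (limma; 0 lower also at an unadjusted p under 0.05), with a median difference of +1.24 (+1.23 with values set no lower than the lowest detected signals). Fn1, Itgav and Plau were not detected on all untreated arrays and passed the filter wholly or mainly through the TGF-beta arrays. Of the 9 list genes detected on all 8 arrays, 9 rose, and with detection p under 0.01 required on all 8 arrays 8 were called higher. Over all genes tested 9.57% rose, 9.88% fell and the median was -0.05. Furin, the protease that cuts the TGF-beta precursor, had a mean of 10.38 ± 0.10 without and 12.04 ± 0.11 with TGF-beta (SD, n = 4), a 3.16-fold rise (adjusted p = 2.8e-05). Itgb6, whose integrin binds the propeptide of the Tgfb1 product on epithelial cells, gave 8.97, 8.11, 8.12 and 8.40 in untreated replicates 1 to 4 and values between 10.64 (replicate 4) and 11.34 (replicate 2) with TGF-beta. It was 6.0-fold higher (adjusted p = 5.1e-05), and the groups lay far apart. Its partner subunit Itgav rose by 1.33, with 2 untreated arrays detected, and Itgb5 by 1.24 (adjusted p = 0.00013). The other tested probe of Itgav gave +0.34 and that of Itgb1 +0.57, and neither passed. Fn1, the fibronectin to which binding proteins attach, was detected on 0 untreated and 4 TGF-beta arrays. Its fitted difference was +3.62 (limma, adjusted p = 6.0e-05). On the background-corrected scale the rise of Fn1 was at least 8.58-fold, a bound that was not itself tested. Without background correction the log2 difference of Fn1 was +1.70, so the size of the fold is uncertain. Also past the threshold were Bmp1 (+1.47), Plaur (+1.49), Itgb1 (+1.00), Mmp14 (+0.96), Plat (+0.85), Plau (+0.75, 1 untreated array) and Tgm2 (+0.65), and Nrros gave +0.10 (adjusted p = 0.764). Plat and Plau were close to the threshold and missed it when any of several single samples was left out. Bmp1, a protease that can cut Ltbp1, rose from 7.02 ± 0.29 to 8.49 ± 0.54 (SD, n = 4).

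Few other ligands of the family could be tested, and 2 of them fell. Of 24 such genes named on the array, 5 were tested, 2 fell and 0 rose (limma; 0 higher also at an unadjusted p under 0.05; with the replicate block Bmp4 rose as well), with a median of -0.26 (-0.30 with values set no lower than the lowest detected signals). Over all genes tested 9.88% fell and 9.57% rose. Bmp3 passed the filter through its untreated arrays alone, so the count of 2 that fell says little about the list. Bmp7, an epithelial BMP ligand, gave 7.40, 7.71, 7.21 and 6.89 in untreated samples 1 to 4 and 6.04, 4.97, 5.37 and 5.51 with TGF-beta, a 3.56-fold fall (adjusted p = 0.00082, 3 TGF-beta arrays detected). Bmp3, whose product opposes other BMPs, was detected on 4 untreated and 0 TGF-beta arrays. Its fitted difference was -1.25 (limma, adjusted p = 0.00095). On the background-corrected scale Bmp3 was at least 1.69-fold lower, a bound that was not itself tested. Without background correction the log2 difference of Bmp3 was -0.40. Bmp4 gave +0.55 (adjusted p = 0.208), Bmp8b +0.43 and Gdf9 -0.26.

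Of 17 secreted antagonists and binding proteins named on the array, 3 were tested, 2 rose and 0 fell (limma; 0 lower also at an unadjusted p under 0.05), with a median of +1.35. Fst entered the test through its TGF-beta arrays alone, so this count says little about the list. Over all genes tested 9.57% rose and 9.88% fell. Fst, the activin-binding relative of Fstl3, gave 4.95, 4.54, 4.75 and 4.73 in untreated replicates 1 to 4, none of them detected, and 7.42, 6.87, 6.61 and 7.30 with TGF-beta. The fitted difference was +2.31 (limma, adjusted p = 5.0e-05). The rise was at least 3.90-fold on the background-corrected scale, a bound that was not itself tested. Without background correction the log2 difference of Fst was +0.88. Htra1, a secreted protease, rose 2.54-fold (adjusted p = 0.0027), and Twsg1 gave +0.19 (adjusted p = 0.557). As a gauge of signalling, 20 genes known to respond to TGF-beta were tested, of which 14 rose and 0 fell (limma; 1 lower at an unadjusted p under 0.05), with a median of +1.01. With the replicate block, Id2 and Id3 were called lower and Cdkn1a higher. These counts rest on each gene's tested probe with the highest mean. Without the block, 2 of 3 tested Cdkn1a probes rose and 1 of 3 tested Id2 probes fell (limma). The smallest adjusted p belonged to Pdgfb (+3.17), Rhob (+3.85), Skil (+2.42) and Pmepa1 (+3.55). Pmepa1 was detected on 1 untreated array and passed the filter mainly through its TGF-beta arrays. Without background correction its log2 difference was +1.78. Smad6, also among the risen genes, was detected on 3 untreated arrays. Of the 16 response genes detected on all 8 arrays, 12 rose.

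**Figure D4:**
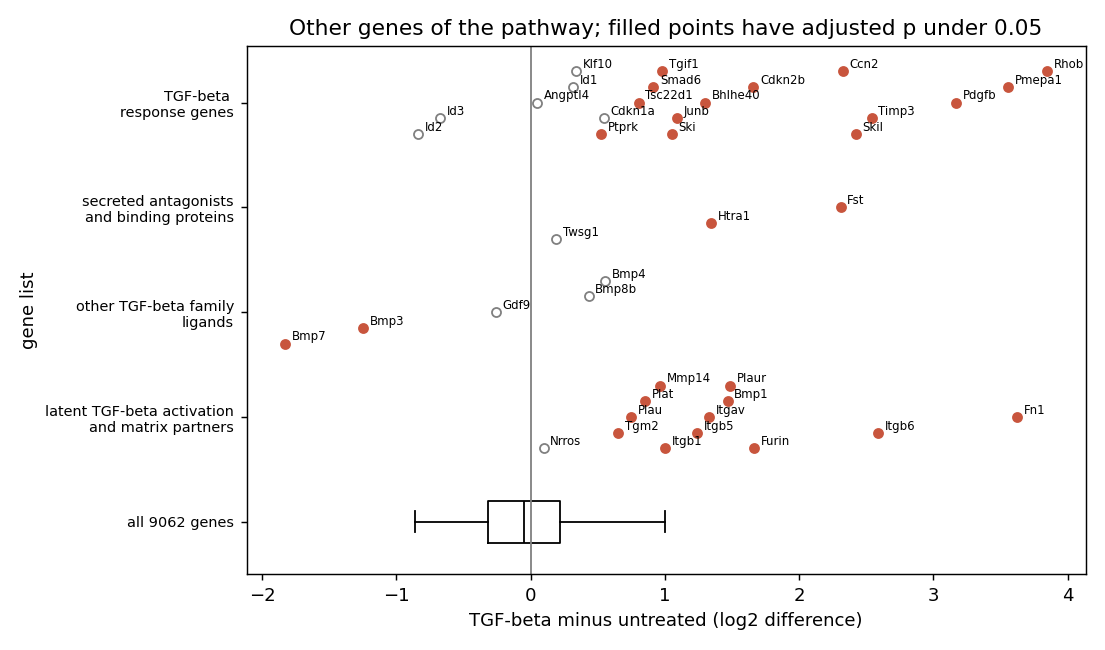
TGF-beta minus untreated (log2) for the tested genes of the 4 pathway lists (points, filled where adjusted p was under 0.05), above a box of all tested genes (median, quartiles, whiskers at the 5th and 95th percentiles). All but Nrros of the latent TGF-beta activation list lie to the right with filled points, and Bmp7 and Bmp3 lie to the left.

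The genes most like each risen probe over the 8 arrays were found by the root mean square difference of log2 values, each centred on its own mean, among 9061 other genes. For Tgfb1 they were Bdh2 (0.16), Ncmap (0.21) and Cd40 (0.22). Bdh2 went from 4.85 in untreated to 7.03 in TGF-beta samples on average, close to the course of Tgfb1. The first Ltbp4 probe was nearest to Tpbg, Kif3c and Myo7a (0.17 each), and the second to Errfi1 (0.08), Rgs12 (0.10) and Lpcat4 (0.11). The nearest to Thbs1 were Lmcd1 (0.23), Fam210b (0.37) and Scara3 (0.37). Lmcd1 rose from 5.19 to 7.71, and the greater distances for Thbs1 go with its wider spread among TGF-beta samples. The 2 Ltbp4 probes shared none of their 3 nearest genes.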

How the data were processed

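Total RNA was hybridised, 1 Illumina mouse array per sample. Per the file headers, the authors deposited the scanner's signal intensity before normalization, and beside it the detection p-value, for all 45281 probes. The authors' processed values come with no stated method and look, from the values, log2 transformed and quantile normalized. The sources used here name no scanner software. No column was left unused (0). Here, background was removed by normexp with the detection p-values standing in for control probes, 16 was added, and quantile normalization and log2 followed (limma 3.58.1, R 4.3.3). Probes detected on at least 4 of 8 arrays, 15573 in all, were fitted with lmFit and eBayes on group alone. Two-sided p-values were adjusted by Benjamini-Hochberg over these probes, with a threshold of 0.05. Levels are means ± SD and differences are TGF-beta minus untreated. Where no array of a group detected a probe, the fold is given only as a bound ("at least"), which was not tested. It sets the brighter group's mean against a floor, on each dim array the lowest signal called detected or the probe's value if higher. Such a bound holds on this background-corrected scale only. Precision is limited by the number of arrays.

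The platform annotation gave 34885 probes a single symbol, 18 several and 10378 none. Entrez identifiers of all 10 members were found in a RefSeq table of GRCm38.p6, which gave the chromosomes. A list gene stood for its tested probe with the highest mean. Among the 14 list genes that had several tested probes, 6 had them on both sides of the threshold: Itgav, Itgb1, Cdkn1a, Id2, Ptprk and Timp3. The members and lists were chosen with earlier results of these data known. Named were all members, up to 4 genes per list with the smallest adjusted p, and the 3 genes most like each risen probe. Vim, Acta2 and the other list genes were named after their values were seen.

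Same-numbered samples deviated together from their group means (correlations of 0.512 to 0.554 over the tested probes), so the replicate number was used as a block in an alternative fit. The pairing comes from these values and not from the labels. Other alternatives were the set of replicates as a block or as strata, no background correction, an offset of 50, median scaling, cyclic loess, the authors' table, other detection filters, trended and robust variances, and leaving out each sample. The fits were run on simulated data with independent noise on each array. That simulation lacks the shared deviation of same-numbered samples, so it cannot show how the fits behave under it. Python 3.11.15 with matplotlib 3.10.9 drew the figures.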

Additional observations from a re-analysis of the deposited data

Results flagged for a closer look

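In groups of 4 samples, chance sets about 1 in 20 apart by the criterion used here, Dixon's ratio of the gap to the range. Among the 22 member probes in both groups, 4 values stood apart. Untreated replicate 2 gave 5.13 for Tgfb1, above the other untreated samples at 4.67 to 4.70, and is the only untreated sample in which Tgfb1 was called detected. The rise of Tgfb1 without that sample was 2.39 (adjusted p = 7.7e-05). The other 3 were values not called detected. Untreated replicate 4 gave 4.92 for the Ltbp1 probe ILMN_2694475, untreated replicate 1 gave 4.90 for the Ltbp2 probe ILMN_2501940, and TGF-beta replicate 4 gave 4.71 for the Ltbp3 probe ILMN_1243018.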

How the results depend on the processing

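The rises of Tgfb1, Thbs1 and both Ltbp4 probes kept their direction and passed under every setting in which they were tested, with 4 member probes higher (4 to 4) when each sample was left out. Over the planned settings other than leaving out samples, the difference ran from 0.87 to 2.47 for Tgfb1, from 1.06 to 3.16 for Thbs1, from 0.55 to 1.58 and from 0.67 to 2.09 for the Ltbp4 probes, the lowest values coming from the authors' table or no background correction. With detection p under 0.01 required on all 8 arrays, 1 member probe was tested, so 0 were higher; 0 other ligand genes were then lower, 1 antagonist gene was higher and 8 activation genes were higher. Tgfbi was the member whose call depended on the setting. The count of lower member probes went from 0 to 1 with the replicate block, the set as a block (adjusted p = 0.019), within replicates 2 and 3, and with median scaling (-1.37, adjusted p = 0.037), and was 0 to 1 over the left-out samples. The replicate block added 1 higher ligand gene (Bmp4), 1 higher response gene (Cdkn1a, 15 in all) and 2 lower response genes (Id2 and Id3), as did the set as a block, and it changed no other member's call. Lower response genes numbered 1 within replicates 1 and 4 and 2 within replicates 2 and 3. With median scaling the test between the sets called 1 member probe. That scaling moved the median of all tested probes from -0.04 to -0.17 and the split of calls from 1370 higher and 1380 lower to 790 and 1464; cyclic loess gave 1524 and 1169. The block raised the calls to 2099 and 2447. The activation list had 9 to 12 higher genes and the response list 11 to 14 over the left-out samples. Plat missed the threshold in 6 of 8 of these and Plau in 5. Without untreated replicate 1, 867 probes were lower. Ltbp1 changed sign within its interval. Probe ILMN_1234779 gave 0.0041 within replicates 2 and 3, 0.015 with values set no lower than the lowest detected signals, and -0.090 to 0.084 over left-out samples. Probe ILMN_2765452 gave -0.045 within replicates 2 and 3 and, over left-out samples, -0.019 to 0.187. Causes were not tested.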
